A study of Homo sapiens with 6 samples.

Results

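The genes described here encode the machinery that writes, copies and removes DNA methylation and that carries out silencing by KRAB zinc finger proteins. They were chosen by symbol, as a list of 10 genes (DNMT1, DNMT3A, DNMT3B, DNMT3L, UHRF1, TET1, TET2, TET3, TRIM28 and SETDB1), and all 10 have a row among the 61155 symbols of the count table. Of them, 9 passed the filter on low counts and were tested among 19521 genes, and DNMT3L did not. Bulk RNA sequencing compared 3 libraries of undifferentiated wild-type (WT) H7 cells, an established human embryonic stem cell (hESC) line, with 3 libraries of S6K1-/- H7 cells, all of them grown without feeders on Matrigel in TeSR-E8 medium. The S6K1-/- cells carry a CRISPR/Cas9 deletion that was guided to exons 9 and 11 of RPS6KB1, the gene for p70 S6 kinase 1, and the cells sequenced were 1 clone, so that effects of the genotype and of this clone cannot be told apart. The sample labels call the genotype a knockdown and give a time of week 5, whereas the methods describe a knockout and undifferentiated cells. Neither source says whether the libraries of a group came from separate cultures, so the p-values measure only the spread between these libraries, which may be technical.

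DNA methylation in mammals is placed on cytosines in CpG dinucleotides. DNMT3A and DNMT3B place it de novo, DNMT3L is a cofactor without catalytic activity, and DNMT1 copies the pattern to the new strand after replication, guided by UHRF1, which recognises hemimethylated DNA. TET1, TET2 and TET3 oxidise methylcytosine and so open the way to its removal. KRAB zinc finger proteins bind DNA and recruit the scaffold TRIM28 (KAP1), which in turn brings in SETDB1, the methyltransferase that trimethylates lysine 9 of histone H3 at retroelements, imprinted loci and zinc finger gene clusters. DNMT3B is abundant in primed human pluripotent cells, the state of conventional hESC lines, and DNMT3L serves as a marker of the naive state.

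CpG dinucleotides, the substrate of these enzymes, are shown in capitals in the promoters of SETDB1, UHRF1 and TET1, members whose RNA differed between the genotypes, since such promoters can themselves be methylated. Each stretch runs 5′ to 3′ from 250 bases before to 50 bases after the start of transcription and is 300 bases long. All come from RefSeq on GRCh38.p14.
SETDB1 promoter, chr1:150926113-150926412, plus strand: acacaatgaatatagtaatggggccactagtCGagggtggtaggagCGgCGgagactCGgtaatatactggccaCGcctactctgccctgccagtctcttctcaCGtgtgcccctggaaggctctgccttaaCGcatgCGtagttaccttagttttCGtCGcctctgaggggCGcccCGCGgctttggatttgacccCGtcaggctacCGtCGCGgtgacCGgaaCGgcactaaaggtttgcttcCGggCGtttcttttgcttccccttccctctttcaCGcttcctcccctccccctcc
UHRF1 promoter, chr19:4909251-4909550, plus strand: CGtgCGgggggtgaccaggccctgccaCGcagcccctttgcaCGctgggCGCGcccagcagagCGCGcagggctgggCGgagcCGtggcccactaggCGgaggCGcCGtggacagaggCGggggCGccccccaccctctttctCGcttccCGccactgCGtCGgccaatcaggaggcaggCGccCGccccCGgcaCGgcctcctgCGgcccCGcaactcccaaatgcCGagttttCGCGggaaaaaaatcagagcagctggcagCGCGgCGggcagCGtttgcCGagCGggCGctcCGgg
TET1 promoter, chr10:68560087-68560386, plus strand: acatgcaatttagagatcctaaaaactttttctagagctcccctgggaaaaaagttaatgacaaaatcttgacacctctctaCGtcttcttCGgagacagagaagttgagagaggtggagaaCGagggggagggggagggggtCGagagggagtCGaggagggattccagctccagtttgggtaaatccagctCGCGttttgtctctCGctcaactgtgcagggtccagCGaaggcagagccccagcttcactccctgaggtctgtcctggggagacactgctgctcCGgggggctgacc
The UHRF1 stretch holds 36 CpG dinucleotides, that of SETDB1 22 and that of TET1 10, where the median of 34796 RefSeq promoters of the same length is 14. Of those promoters, 87.3% have fewer CpG dinucleotides than UHRF1, 62.3% fewer than SETDB1 and 43.7% fewer than TET1. DNMT1 (30), DNMT3A (46), TET2 (35) and TET3 (45) are above the median. RefSeq entries were matched by symbol for 8 of the 10 members, of which 7 are described here, and DNMT3L and TRIM28 were not matched. The member matched but not described is DNMT3B, whose RNA also differed between the genotypes. Its RefSeq entry lies 17467 bases from its annotated start. Short motifs were searched on both strands. The GC box GGGCGG occurs in 44.9% of all promoters and was found 2 times in the UHRF1 stretch and not in those of SETDB1 or TET1. CCAAT, found in 34.6% of all promoters, occurs in 1 place in the UHRF1 stretch and in none of the other stretches printed. Of the E2F-type words TTTCCCGC, TTTGGCGC and TTTGGCGG, of which the last pair shares all but the final base, only TTTCCCGC occurs in a printed stretch, in 1 place in that of UHRF1 and in 1.63% of all promoters.

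The libraries held from 21896698 to 24473013 counts, and the precision of the members follows from their counts, which in a library ran from 23269 to 34830 for DNMT3B and from 45 to 76 for TET2. RPS6KB1 had 831, 791 and 777 counts in WT and 464, 464 and 438 in S6K1-/- libraries (log2 fold change -0.75, edgeR adjusted p = 2.52e-07), counted over the whole gene and not over the deleted part, and 12.7% of its exonic sequence, compared in 50-base words at 25-base steps, has a further match on chromosome 17. The stem cell markers POU5F1 (181 ± 3.71 CPM in WT and 177 ± 16.5 CPM in S6K1-/- hESCs), SOX2 (301 ± 9.72 and 292 ± 10.9 CPM) and NANOG (191 ± 5.96 and 198 ± 2.67 CPM, SD, n = 3 each) were high in both groups, where CPM stands for counts per 1000000 counts after scaling by edgeR's TMM method. Primed pluripotency markers summed to between 4100 and 4280 CPM in WT and between 4050 and 4140 CPM in S6K1-/- libraries. In edgeR's quasi-likelihood test, 0 of 9 passed an adjusted p of 0.001. At 0.05, SALL4 (log2 fold change -0.17) and TDGF1 (-0.15) were lower, 2 of 9, and 0 were higher. Over all genes tested, 8.31% were lower and 5.47% higher at 0.05. Of the 9 markers, 7 had a log2 fold change below 0. In bulk RNA, fewer cells of a type and less RNA per cell cannot be told apart.

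At an adjusted p under 0.001 from edgeR's quasi-likelihood F test, adjusted by the Benjamini-Hochberg method over all genes tested, DNMT3B and SETDB1 fell and UHRF1 rose in S6K1-/- hESCs. That is 2 of 9 members lower and 1 of 9 higher, where 2.54% of all genes tested were lower and 1.42% were higher (3.96% in either direction). At an adjusted p under 0.05, TET1 was also higher, giving 2 lower and 2 higher members, where 8.31% and 5.47% of all genes were lower and higher (13.8% in either direction). DNMT1, DNMT3A, TET2, TET3 and TRIM28 passed neither threshold. For 6 of the 9 members the CPM of WT and S6K1-/- libraries did not overlap, beside 30.7% of all genes tested. The changes were of moderate size. Over the 10480 genes whose mean reached 10 CPM, the median absolute log2 fold change was 0.07 and the 90th percentile was 0.23, and 97.6% of them changed less than SETDB1, 96.4% less than UHRF1, 95.6% less than DNMT3B and 91.2% less than TET1.

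**Figure D1:**
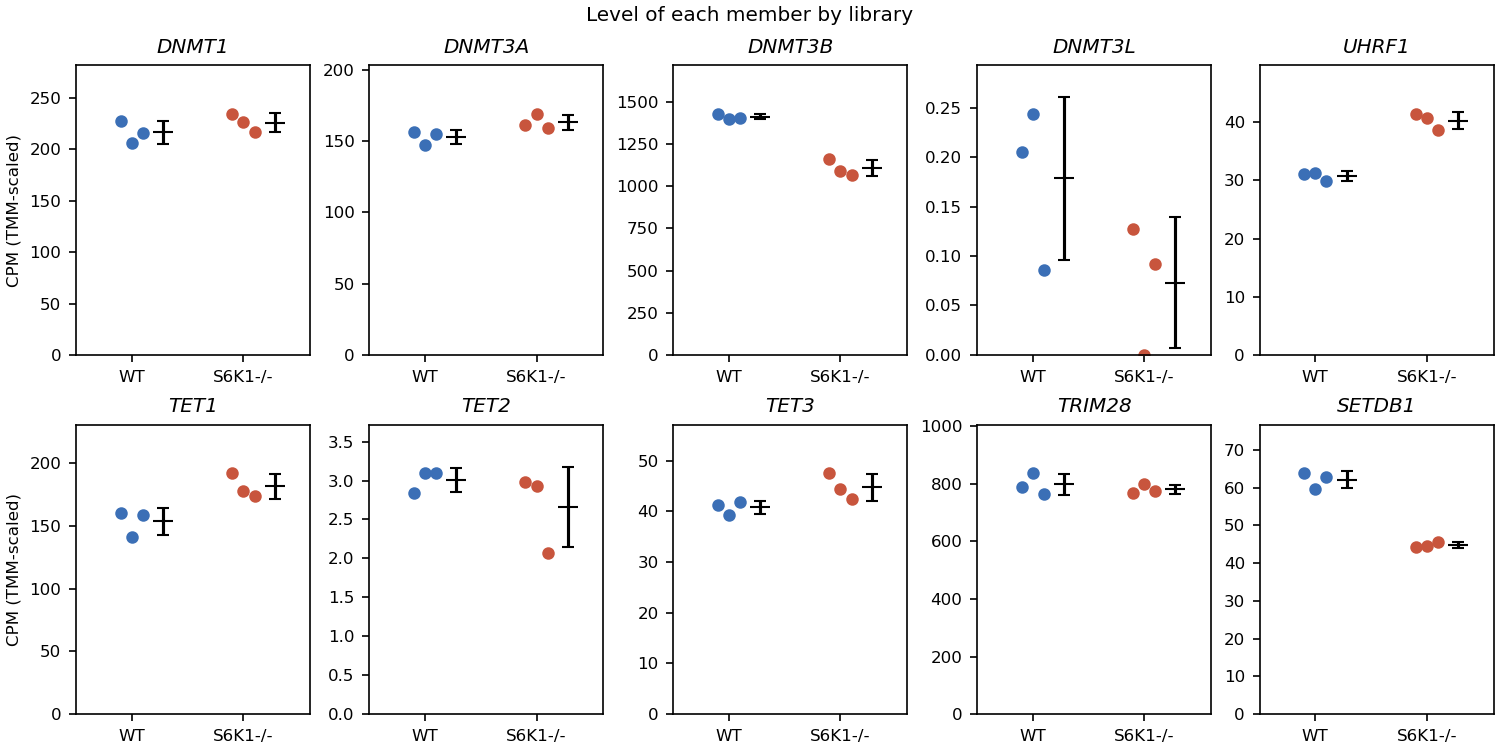
TMM-scaled CPM (vertical axes from 0) of the 10 members in each WT and S6K1-/- library (points), with the mean ± SD of each group (n = 3) beside them. The S6K1-/- libraries lie below all WT libraries for DNMT3B and SETDB1 and above them for UHRF1, TET1, TET3 and DNMT3A, while the groups overlap for DNMT1, TET2, TRIM28 and DNMT3L.

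DNMT3B (chromosome 20, 32762385 to 32809359, plus strand, GRCh38 with GENCODE annotation), a de novo methyltransferase, was the most abundant member in counts and ranked 43 by CPM among all genes tested in WT hESCs. WT libraries held 34830, 34421 and 32650 counts of it and S6K1-/- libraries 27268, 26076 and 23269, or 1431, 1400 and 1406 CPM against 1161, 1089 and 1069 CPM. The highest S6K1-/- library was thus below the lowest WT library. The mean fell from 1412 ± 16.3 to 1106 ± 48.5 CPM (SD, n = 3 each), which is a log2 fold change of -0.35 (standard error, SE, 0.044, 95% interval -0.45 to -0.26, edgeR adjusted p = 4.88e-05). On the linear scale this is a change of -21.6%.

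DNMT3A (chromosome 2, 25227855 to 25342590, minus strand), the other de novo methyltransferase, was slightly higher on average, within the limits of the test. Its libraries held 156, 148 and 155 CPM in WT and 161, 169 and 159 CPM in S6K1-/- hESCs. Each S6K1-/- library was above each WT library, but the log2 fold change of 0.09 (95% interval 0.01 to 0.18, edgeR adjusted p = 0.162) did not pass a threshold. For each DNMT3B count there were 0.109, 0.105 and 0.110 DNMT3A counts in WT and 0.139, 0.155 and 0.149 in S6K1-/- libraries, a ratio within a library that does not depend on scaling. The ratio was higher in every S6K1-/- library than in any WT library (log2 difference 0.45, exact permutation test, two-sided p = 0.1, the smallest that 3 against 3 libraries allow). The exact p was 0.1 for each of 5 such ratios computed between members, and 0.1 after Benjamini-Hochberg adjustment over them.

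DNMT3L (chromosome 21, 44246339 to 44262216, minus strand), the catalytically inactive cofactor, was close to absent, with 5, 6 and 2 counts in WT and 3, 0 and 2 counts in S6K1-/- libraries, too few to be tested. A count of 0 allows up to 3 counts in a library. The annotation marks a second copy of this gene on chromosome 21 of the reference, from about 5011801 to 5017150, as an artificial duplication, and 28.8% of the 25-base steps of DNMT3L exons hold a 50-base word found there. How the deposited counts treat reads from this second copy was not resolved here. Other naive pluripotency markers were low as well, with a summed level of the 7 markers, DNMT3L included, from 23.8 to 27 CPM in WT and from 20.3 to 23.2 CPM in S6K1-/- libraries. KLF17, named after its values were seen, had 0 counts throughout. Of the naive markers tested, 0 of 4 passed 0.001, DPPA5 had 14, 17 and 17 counts in WT and 32, 29 and 35 in S6K1-/- libraries (log2 fold change 1.06, edgeR adjusted p = 0.0062), and TFCP2L1 had a log2 fold change of -0.29 (edgeR adjusted p = 0.0206).

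DNMT1 (chromosome 19, 10133342 to 10231286, minus strand), the maintenance methyltransferase, had 228, 206 and 216 CPM in WT and 235, 227 and 217 CPM in S6K1-/- libraries, and the groups overlapped. Its log2 fold change was 0.06 (95% interval -0.03 to 0.16, edgeR adjusted p = 0.427), so that a change of more than 11.8% upward lies outside the interval. DNMT1 overlaps S1PR2 on the same strand, which had from 245 to 344 counts in a library, against 4720 to 5541 for DNMT1.

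UHRF1 (chromosome 19, 4903080 to 4962154, plus strand), which recruits DNMT1 to replicated DNA, had 757, 770 and 693 counts in WT and 974, 973 and 843 in S6K1-/- libraries. In CPM, these are 31.1, 31.3 and 29.8 against 41.5, 40.6 and 38.7, and each S6K1-/- library was above each WT library. UHRF1 rose from 30.8 ± 0.802 to 40.3 ± 1.41 CPM (SD, n = 3 each), which is a log2 fold change of 0.39 (SE 0.052, 95% interval 0.28 to 0.50, edgeR adjusted p = 1.04e-04), or a change of 31.0%. Without S6K1-/- replicate 1 the adjusted p was 0.00133, above the threshold. DNMT1 had 7.32, 6.57 and 7.24 counts for each UHRF1 count in WT and 5.66, 5.58 and 5.60 in S6K1-/- libraries, a log2 difference of -0.33 without overlap between the groups. A processed pseudogene on chromosome 12, from 20551576 to 20554350 within PDE3A, holds a 50-base word from 36.2% of the 25-base steps of UHRF1 exons, and how the authors' alignment divided reads between these copies was not resolved here.

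UHRF1 and DNMT1 are transcribed mostly in dividing cells. Of 14 proliferation genes tested, 0 passed 0.001 and 1 was higher at 0.05, TOP2A, with a log2 fold change of 0.14 (edgeR adjusted p = 0.0282). Their median log2 fold change was 0.05, beside -0.0024 over all genes tested, and their summed level was from 3470 to 3600 CPM in WT and from 3700 to 3820 CPM in S6K1-/- libraries. MCM4, a subunit of the replicative helicase, had a log2 fold change of 0.11 (edgeR adjusted p = 0.0746). The summed level was thus higher in each S6K1-/- library, while 3 of the 14 genes had a log2 fold change below 0. MKI67, named after its values were seen, had 444 ± 73.7 CPM in WT and 516 ± 35.1 CPM in S6K1-/- hESCs (SD, n = 3 each). Its groups overlapped (log2 fold change 0.22, edgeR adjusted p = 0.124). By EdU staining of cells, the paper reported a lower proliferation rate in S6K1-/- than in WT hESCs. The part of proliferation in the UHRF1 result was not tested.

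**Figure D2:**
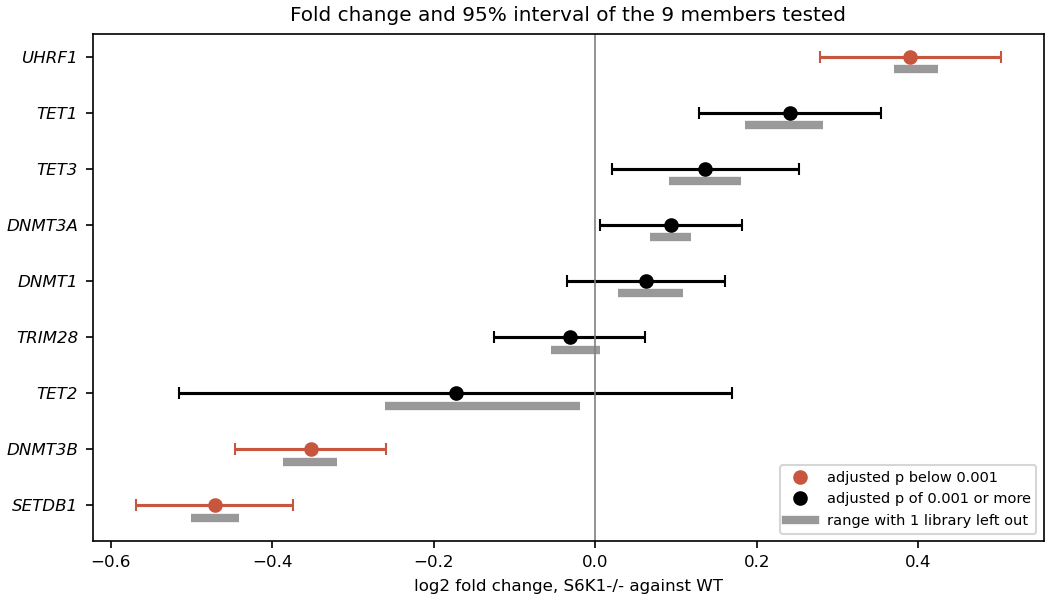
Log2 fold change of S6K1-/- against WT hESCs (horizontal axis) for the 9 members tested, with its 95% interval (bars) and, in grey, the range over the 6 fits that each left out 1 library. SETDB1, DNMT3B and UHRF1 have intervals that stay between -0.57 and -0.26 or between 0.28 and 0.50.

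Among the TET dioxygenases, TET1 (chromosome 10, 68560337 to 68694487, plus strand) had 160, 141 and 159 CPM in WT and 192, 178 and 174 CPM in S6K1-/- libraries. The lowest S6K1-/- library was above the highest WT library. The log2 fold change was 0.24 (SE 0.053, 95% interval 0.13 to 0.35, edgeR adjusted p = 0.00604), past 0.05 but not past 0.001, and 0.25 with an adjusted p of 4.35e-04 in DESeq2's Wald test. TET3 (chromosome 2, 73984910 to 74108176, plus strand) had 41.2, 39.2 and 41.8 CPM in WT and 47.6, 44.3 and 42.4 CPM in S6K1-/- libraries. Its groups did not overlap either, but its log2 fold change of 0.14 (95% interval 0.02 to 0.25, edgeR adjusted p = 0.117) passed no threshold. TET2 (chromosome 4, 105145875 to 105279816, plus strand) was barely expressed, with 69, 76 and 72 counts in WT and 70, 70 and 45 in S6K1-/- libraries, and its interval was wide (log2 fold change -0.17, 95% interval -0.52 to 0.17, edgeR adjusted p = 0.548). Without S6K1-/- replicate 3, the library with 45 counts, the log2 fold change of TET2 was -0.02 (edgeR adjusted p = 0.960).
The opposite movement of TET1 and DNMT3B showed in their ratio. TET1 had 0.112, 0.101 and 0.113 counts for each DNMT3B count in WT and 0.166, 0.164 and 0.163 in S6K1-/- libraries, a log2 difference of 0.59 without overlap (exact permutation test, two-sided p = 0.1). The ratio of TET1 to TET3 moved less, from 3.77 ± 0.15 to 4.06 ± 0.042 (SD, n = 3 each, log2 difference 0.11).

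TRIM28 (chromosome 19, 58544064 to 58550722, plus strand), the scaffold that KRAB domains bind, was the second most abundant member in counts and ranked 107 by CPM in WT hESCs. It had 791, 839 and 766 CPM in WT and 769, 799 and 774 CPM in S6K1-/- libraries, with full overlap of the groups. Its log2 fold change was -0.03 (95% interval -0.13 to 0.06, edgeR adjusted p = 0.706), so that a change below -8.34% lies outside the interval.
SETDB1 (chromosome 1, 150926263 to 150964744, plus strand), the histone methyltransferase that TRIM28 recruits, had 1556, 1464 and 1458 counts in WT and 1037, 1068 and 992 in S6K1-/- libraries, or 63.9, 59.6 and 62.8 CPM against 44.2, 44.6 and 45.6 CPM. All S6K1-/- libraries lay below all WT libraries, and the spread within each group was small. SETDB1 fell from 62.1 ± 2.26 to 44.8 ± 0.72 CPM (SD, n = 3 each), which is a log2 fold change of -0.47 (SE 0.046, 95% interval -0.57 to -0.37, edgeR adjusted p = 3.78e-06), or a change of -27.9%, the largest among the members tested on the log2 scale. For each TRIM28 count there were 0.0808, 0.0710 and 0.0820 SETDB1 counts in WT and 0.0574, 0.0558 and 0.0589 in S6K1-/- libraries (log2 difference -0.44).
The gene spans of SETDB1 and CERS2 overlap by 4162 bases on opposite strands, and the strand setting of the counting is not given. CERS2 had from 3846 to 4580 counts in a library and a log2 fold change of -0.07 (edgeR adjusted p = 0.308).

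Compared per kilobase of exonic length, DNMT3B and TRIM28 stood far above every other member in both genotypes. In WT hESCs the level was 205 ± 2.37 CPM per kb for DNMT3B and 185 ± 8.62 for TRIM28 (SD, n = 3), followed by TET1 (16 ± 1.12), DNMT1 (14.1 ± 0.71), DNMT3A (11.1 ± 0.349), SETDB1 (8.42 ± 0.307), UHRF1 (5.98 ± 0.156), TET3 (3.15 ± 0.107), TET2 (0.183 ± 0.0092) and DNMT3L (0.096 ± 0.044). The libraries of TET1 and DNMT1, from 14.7 to 16.7 and from 13.4 to 14.8 CPM per kb, overlapped in WT hESCs, and the other neighbours in this order did not. In this order 2 pairs of neighbours changed places in S6K1-/- hESCs. TRIM28 (181 ± 3.76 CPM per kb) was above DNMT3B (161 ± 7.06), and UHRF1 (7.83 ± 0.274) was above SETDB1 (6.07 ± 0.0976), both without overlap between libraries. These places depend on the length used, since with the longest transcript DNMT3B (253 ± 11.1) remained above TRIM28 (232 ± 4.82) and SETDB1 (10.1 ± 0.162) above UHRF1 (9.35 ± 0.328) in S6K1-/- hESCs. By that length the order of the next members in WT hESCs also turned, with DNMT1 (30.2 ± 1.53 CPM per kb) above DNMT3A (16.1 ± 0.506) and TET1 (16 ± 1.12).

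**Figure D3:**
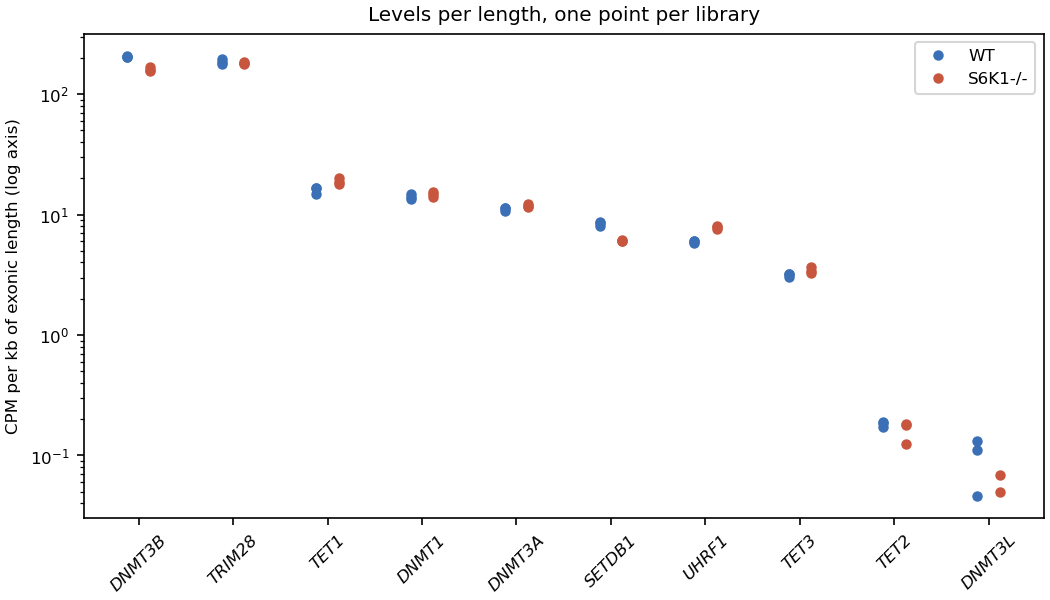
Level of each member in CPM per kb of merged exonic length (vertical log axis), with 1 point for each WT and S6K1-/- library, members ordered by their WT level. A library of DNMT3L with 0 counts is not drawn. DNMT3B and TRIM28 lie near 200, the methyltransferase, TET and SETDB1 genes between about 3 and 20, and TET2 and DNMT3L under 1.

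No gene of at least 10 CPM around DNMT3B, SETDB1, UHRF1 or TET1 changed as far as the member in the member's own direction. Among genes whose mean reached 10 CPM and whose start lies within 1000 kb of that of DNMT3B, 0 of 15 passed 0.001, their median log2 fold change was -0.04, and the lowest was -0.25, above that of DNMT3B. The nearest start among them is that of COMMD7, 18.9 kb upstream, which was lower at 0.05 (log2 fold change -0.23, edgeR adjusted p = 0.0202). DNMT3B lies in the chromosomal band that stem cell lines often gain. Of 19 genes tested from a list of that band, 4 were lower and 0 higher at 0.05 (8.31% and 5.47% of all genes). Their median log2 fold change was -0.05, and 13 of the 19 were below 0. At 0.001, 1 gene was lower and 0 were higher (2.54% and 1.42% of all genes). The gene lower at 0.001 was BCL2L1, an inhibitor of apoptosis, with 63.7 ± 1.56 CPM in WT and 52.9 ± 1.63 CPM in S6K1-/- hESCs (SD, n = 3 each, log2 fold change -0.27, edgeR adjusted p = 6.88e-04).
Around SETDB1, 41 genes had a median log2 fold change of -0.02 and a lowest value of -0.36, so that none fell as far as SETDB1, and 1 of them, CA14, named after its value was seen, was lower at 0.001. Around UHRF1, 29 genes had a median of -0.01 and a highest value of 0.13, below the 0.39 of UHRF1, while SEMA6B, also named after its value was seen, fell by 0.50 on the log2 scale. Around TET1, 11 genes had a highest value of 0.13, and HK1, named after its value was seen, fell by 0.28. TRIM28 lies among zinc finger genes on chromosome 19, and of 27 genes around it, 4 were lower and 0 higher at 0.05 (8.31% and 5.47% of all genes) and 2 were lower at 0.001 (2.54% of all genes), ZSCAN18 with a log2 fold change of -0.42 and ZNF329 with -0.44, both named after their values were seen.

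**Figure D4:**
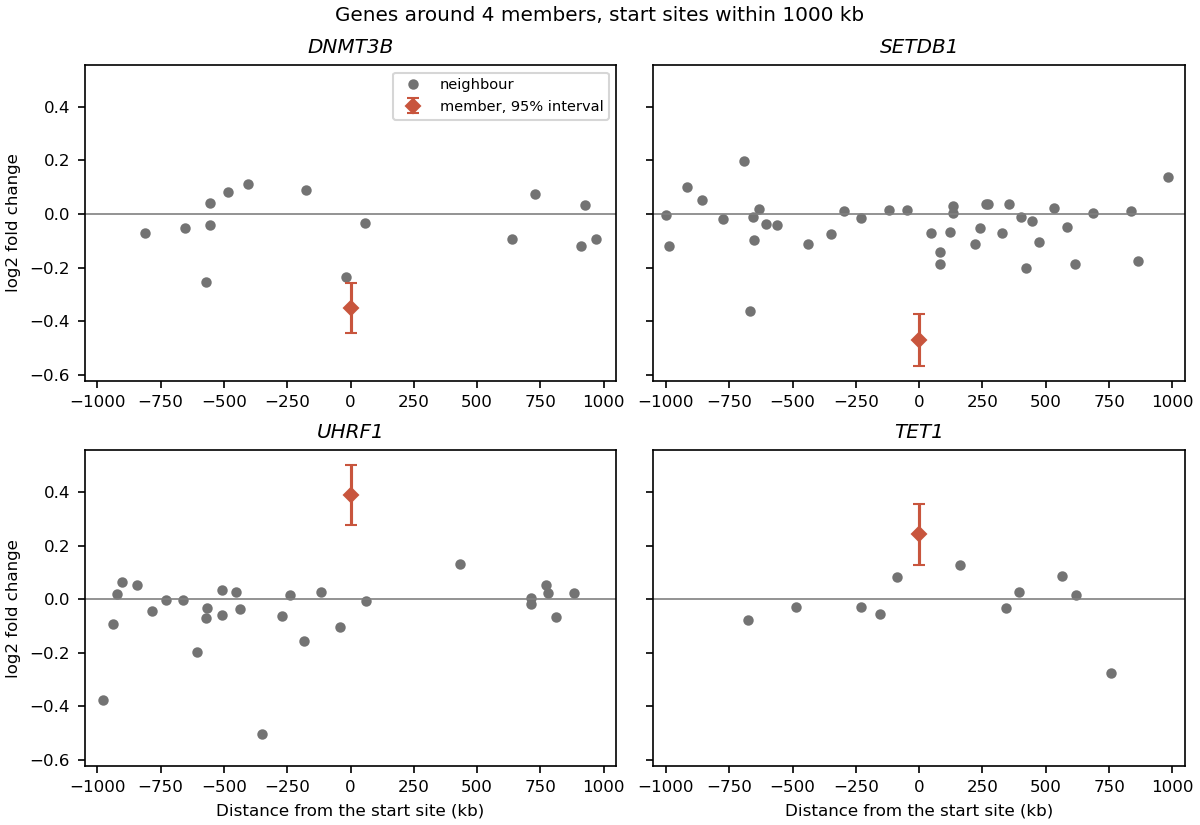
Log2 fold change of S6K1-/- against WT hESCs (vertical axes) for DNMT3B, SETDB1, UHRF1 and TET1 (diamonds with 95% intervals) and for the genes of at least 10 CPM around them (circles), by distance between start sites in kb, in the direction of transcription. Each member lies beyond all its neighbours in the direction of its own change.

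Of 66 other genes of the pathway, 63 were tested, and 0 were lower and 1 was higher in S6K1-/- hESCs at 0.001 (2.54% and 1.42% of all genes). At 0.05 they were 1 lower and 4 higher (8.31% and 5.47% of all genes). Of these 63 genes, 47 had a log2 fold change above 0, and their median was 0.05, beside 49.4% and -0.0024 over all genes tested, and 29 of the 63 had no overlap between WT and S6K1-/- libraries, beside 30.7% of all genes.
Of 10 genes that act with DNMT1 and UHRF1 in maintenance, among them PCNA, HELLS and CDCA7, none passed a threshold (0 of 10 at 0.05). The smallest p-values were those of UHRF2, the paralog of UHRF1, with a log2 fold change of 0.15 (edgeR adjusted p = 0.0651), and of PCLAF, a PCNA-binding protein that UHRF1 ubiquitinates, with -0.47 (edgeR adjusted p = 0.0658) from 59, 73 and 75 counts in WT and 49, 47 and 47 in S6K1-/- libraries. Of 14 genes of active demethylation and base excision repair, such as TDG, which excises oxidised methylcytosine, 0 passed 0.05. GADD45G had a log2 fold change of 0.32 (edgeR adjusted p = 0.0801) and CXXC5 of 0.09 (edgeR adjusted p = 0.176). Of 5 genes of methyl donor supply, 0 passed 0.05. AHCY, which clears the inhibitory product of methyl transfer, had 305 ± 4.87 CPM in WT and 281 ± 6.3 CPM in S6K1-/- hESCs (SD, n = 3 each, log2 fold change -0.12, edgeR adjusted p = 0.0569), and AHCYL1 a log2 fold change of 0.09 (edgeR adjusted p = 0.133).
Of 7 readers of methylated DNA, 1 was lower at 0.05, ZBTB38, with 20.7 ± 0.926 CPM in WT and 17.2 ± 1.63 CPM in S6K1-/- hESCs (SD, n = 3 each, log2 fold change -0.27, edgeR adjusted p = 0.0281). MBD1, a reader that forms a complex with SETDB1, had a log2 fold change of 0.10 (edgeR adjusted p = 0.189).

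Among partners of TRIM28 and SETDB1 and other genes of heterochromatin, 27 of 30 were tested, and 1 was higher at 0.001 and 4 at 0.05, where 1.42% and 5.47% of all genes were, while 0 were lower. CHD3, a subunit of the NuRD complex that binds TRIM28, rose from 74.2 ± 2.99 to 91.7 ± 4.16 CPM (SD, n = 3 each, log2 fold change 0.31, edgeR adjusted p = 3.03e-04). ATF7IP, the cofactor that stabilises SETDB1 and keeps it in the nucleus, had 5601, 5204 and 5599 counts in WT and 6361, 6435 and 5867 in S6K1-/- libraries, with 228 ± 14.8 against 270 ± 1.08 CPM and a log2 fold change of 0.25 (edgeR adjusted p = 0.00199). It thus differed in the direction opposite to SETDB1, past 0.05 but not past 0.001. TRIM33 (0.17) and ATRX (0.15), named after their values were seen, were the other 2 genes past 0.05. The HP1 genes CBX1, CBX3 and CBX5 had log2 fold changes of 0.08, 0.02 and 0.05, and the HUSH complex genes TASOR, MPHOSPH8 and PPHLN1 of 0.10, 0.06 and 0.05, named after their values were seen, and none passed 0.05. The 3 genes not tested are named after their values were seen. ZFP57, a KRAB zinc finger gene of imprinted loci, had 0 counts throughout, and DAXX and EHMT2 had at most 3 and 6 counts in a library. Alternate contigs of the reference held words from 95.7% of the steps of DAXX exons and 85.2% of those of EHMT2, beside at most 0.176% for a member, and the counts of DAXX and EHMT2 were not read as levels.

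**Figure D5:**
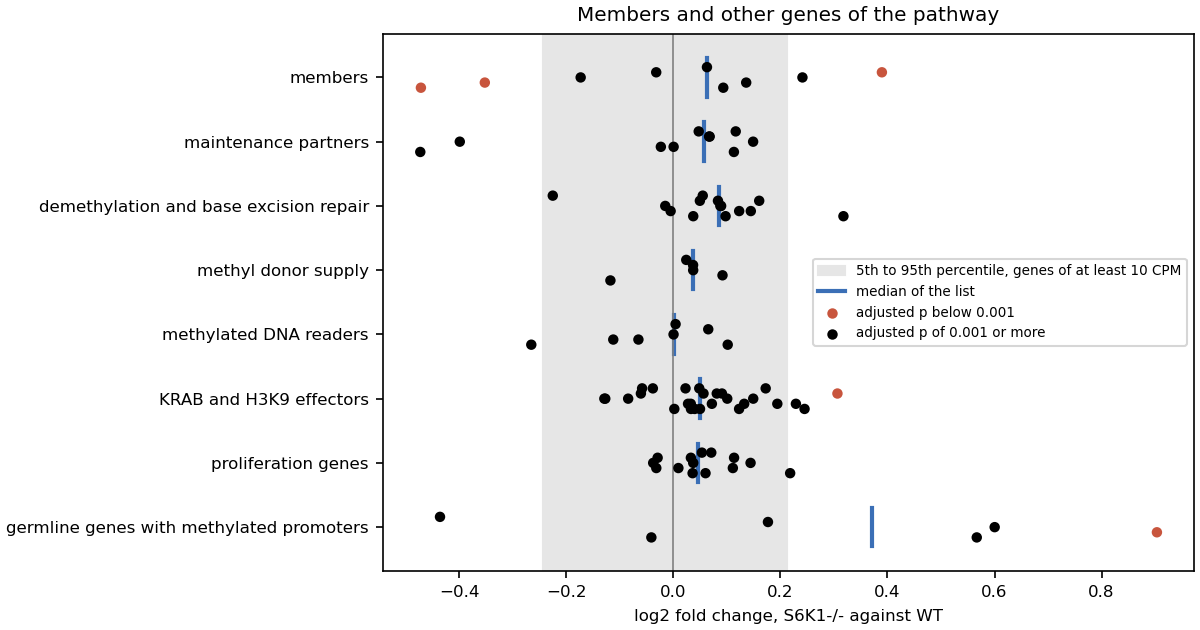
Log2 fold change of S6K1-/- against WT hESCs (horizontal axis) for the members and for 7 lists of related genes, with 1 point per gene tested, the median of each list (blue lines) and the range from the 5th to the 95th percentile of genes with at least 10 CPM (grey). Outside the members, the points past an adjusted p of 0.001 are CHD3 and PIWIL2.

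Genes that this machinery is known to keep silent were also counted. Of 15 germline genes whose promoters are methylated in somatic cells, 6 were tested, and 1 was higher at 0.001 and 2 at 0.05, where 1.42% and 5.47% of all genes were, with none lower. PIWIL2, a protein of the piRNA pathway, had 313, 314 and 291 counts in WT and 563, 574 and 510 in S6K1-/- libraries, a rise from 12.7 ± 0.171 to 23.8 ± 0.316 CPM (SD, n = 3 each, log2 fold change 0.90, SE 0.062, edgeR adjusted p = 7.56e-08). SOHLH2 had 34, 26 and 30 counts in WT and 40, 47 and 44 in S6K1-/- libraries (log2 fold change 0.60, edgeR adjusted p = 0.0473). The 9 genes not tested had at most 11 counts in a library in either group. Summed, the 15 genes were at 21.2 to 22 CPM in WT and at 33.5 CPM in S6K1-/- libraries, most of which is PIWIL2.
Of 470 ZNF genes tested, the family to which the KRAB zinc finger proteins belong, 23 were lower and 14 were higher at 0.001, 4.89% and 2.98% of them, where 2.54% and 1.42% of all genes were. Their median log2 fold change was 0.0061, and single genes ran from -11.5 to 2.54.

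Markers of other cell types were low in both groups and some moved with genotype. Endoderm markers summed to 7.32 to 10.3 CPM in WT and 4.18 to 4.9 CPM in S6K1-/- libraries, with SOX17 and GATA6 at or under 3 counts throughout, and of 3 tested, 2 were lower at 0.05, FOXA2 (log2 fold change -0.88) and CXCR4 (-1.26). Neuroectoderm markers summed to 15.3 to 17 and 15.1 to 16.4 CPM, with NEUROG2 at or under 3 counts, and of 3 tested PAX6 rose (log2 fold change 0.76, edgeR adjusted p = 2.69e-04) and DCX fell (-0.54, edgeR adjusted p = 4.91e-04). The third, SOX1, named after its values were seen, was higher at 0.05, with 6, 7 and 6 counts in WT and 16, 17 and 12 in S6K1-/- libraries (log2 fold change 1.29, edgeR adjusted p = 0.0174). Mesoderm markers summed to 15.4 to 16.1 and 16.7 to 18 CPM, with MIXL1 (0.24) past 0.05 and EOMES (-0.74) not. Amnion and trophoblast markers summed to 20.3 to 21.8 and 17.5 to 19.5 CPM, with CDX2, HAND1 and ISL1 at or under 3 counts, KRT7 (-0.82) past 0.05 and GATA3 (-0.18) not. Whether cells of other types were present, and their part in the results on the members, was not tested.

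As a description of patterns across the 6 libraries, the genes of at least 10 CPM with the highest Pearson correlation with DNMT3B on the log2 CPM scale were MAPKAPK3 (r = 0.997) and MOCS1 (0.996), those with TET1 were MGA (0.999) and UGGT1 (0.998), and those with TRIM28 were SLC39A3 (0.993) and NAT14 (0.992). All points share the same 6 libraries and their depth, so such values are no finding.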

How the data were processed

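Bulk RNA sequencing of 6 libraries, 3 WT and 3 S6K1-/-, was analysed from counts per gene symbol. Per the methods and the submitters' processing notes, the authors trimmed paired reads with Trim Galore 0.6.5, aligned them to GRCh38 with Bowtie2 2.4.5, which does not align across splice junctions, and deposited whole-number counts from featureCounts without normalization. The annotation release and strand setting are not given in the sources used here. The deposited table of the authors' own DESeq2 comparison (fold changes, p-values) was not used.

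Genes were kept with filterByExpr (19521 of 61155), scaled by TMM and tested with edgeR's quasi-likelihood F test (edgeR 4.0.16, R 4.3.3), genotype being the only factor, at the study's threshold of 0.001 after Benjamini-Hochberg adjustment, with 0.05 beside it. The standard error is the log2 fold change over the square root of F, and the common dispersion was 0.0022. The steps were tested on simulated data. As alternatives, the Wald test of DESeq2 1.42.0, its size factors within edgeR, other filters, the replicate number as a block, mitochondrial genes left out, and each library left out in turn were run. Lengths and positions are from GENCODE on GRCh38. Exonic 50-base words were searched at 25-base steps in all 455 contigs of the reference, and a step counts as matched where at least 1 of its words was found.

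The members and lists were chosen with earlier results of these data known. The rule for named genes takes all members, up to 4 genes of each list past 0.001 or, where fewer than 2 pass, the 2 with the smallest p, RPS6KB1, 3 stem cell markers and the 2 genes most correlated with DNMT3B, TET1 and TRIM28. Genes named with a change outside this rule are marked, other than those that overlap a member. Some items are not reported here.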

Additional observations from a re-analysis of the deposited data

How the results depend on the processing

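DNMT3B and SETDB1 kept their direction and stayed past 0.001 in all 12 alternatives, with log2 fold changes from -0.39 to -0.32 and from -0.50 to -0.44. UHRF1 did so in 11 of 12 and lost the threshold without S6K1-/- replicate 1 (0.37, adjusted p = 0.00133), while over the 6 libraries left out in turn it ran from 0.37 to 0.42. TET1 passed 0.001 with DESeq2's Wald test (0.25, adjusted p = 4.35e-04) and without a filter on low counts (0.24, adjusted p = 2.12e-06), and its adjusted p was from 2.12e-06 to 0.0420 over all 12. The number of members higher was accordingly 2 in those fits and at 0.05, and from 0 to 1 with a library left out. DNMT1, DNMT3A, TET2, TET3 and TRIM28 passed 0.05 in none of the 12, and TRIM28 ran from -0.05 to 0.01 and TET2 from -0.26 to -0.02. Over all genes, 496 lower and 278 higher genes became 1622 and 1067 at 0.05 and 982 and 591 without the filter, and with a library left out from 313 to 445 and from 175 to 235, with 313 lower without S6K1-/- replicate 3 and 175 and 179 higher without S6K1-/- replicates 1 and 2. The cause was not tested. With the replicate number as a block they were 423 and 241, and the block changed no call of a member. Same-numbered libraries correlated at 0.194, 0.104 and 0.0819 in their deviations from the group means, so the numbers were not taken as pairs, and WT replicates 2 and 3 correlated best with S6K1-/- replicates 3 and 1. Counts of some lists at 0.001 also depended on the test. With DESeq2's Wald test, 2 partners of TRIM28 and SETDB1 and other heterochromatin genes were higher, where edgeR gave 1. In that test 1 endoderm marker and 1 amnion and trophoblast marker were lower, where edgeR gave 0 of each. The count of members without overlap was 6 under each scaling, and the 5 ratios kept their direction with each library left out. The ratio of DNMT3L to DNMT3B was not run because a library had 0 counts. Intervals and floors cover counting error and the spread between these libraries only. Depth limits TET2 and DNMT3L.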
